A study of Mus musculus with 12 samples.

Results

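The genes described here encode the mitochondrial respiratory chain and ATP synthase of the mouse, from both genomes that contribute to them. They are the protein-coding rows of the gene table whose symbol begins with Nduf (complex I), is Sdha to Sdhd (complex II), or begins with Uqcr (complex III), Cox4 to Cox8 (complex IV), Atp5 (complex V), or mt-Nd, mt-Cytb, mt-Co or mt-Atp (mitochondrial DNA). This rule, which uses names and no measured value, took 106 of 52550 genes: 93 nuclear genes and all 13 protein genes of mitochondrial DNA. Of the nuclear genes, 83 encode subunits, 8 (Ndufaf1 to Ndufaf8) encode complex I assembly factors that leave before the complex is finished, and Atp5s and Atp5sl are named for complex V without being subunits of the purified enzyme. Complex I is represented by 36 nuclear and 7 mitochondrial genes, complex II by 4 nuclear genes, complex III by 8 and 1, complex IV by 20 and 3, and complex V by 15 and 2.

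RNA was sequenced from D2A1 and D2.OR, a pair of cell lines from mouse mammary tumors, each grown on plastic (2D) or on top of growth-factor-reduced Matrigel for a week (3D). D2A1 cells proliferate in the 3D culture and D2.OR cells become dormant there, so that D2.OR in 3D is the dormant group and the other 3 groups are proliferating. Each of the 4 groups has 3 libraries, and the replicate number is a batch (B1 to B3 in the labels) shared by the 4 groups. The lines came from separate tumors, and several wells of a line were pooled for each RNA sample. The 3D medium held horse serum, insulin, hydrocortisone and cholera toxin. The paper describes 2D culture both in that medium and in high-glucose DMEM, and which of them served for RNA is not clear. Cells in 3D were taken out of Matrigel with an ice-cold recovery solution before RNA extraction. The part of medium and extraction in the comparisons of cultures was not tested. Each line is 1 line, so the p-values below measure the spread between batches of these lines and not between tumors.

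Library totals ranged from 47589611 to 73325069 expected counts. Of the 106 genes, 101 passed the filter on low counts and were tested among 16823 genes. The 5 that were not tested were Cox4i2, Cox6b2, Cox7b2, Cox8b and Cox8c, minor or tissue-restricted complex IV isoforms with at most 11 counts in any library. Cox8c was at 0 in all 12 libraries. Of 8 mammary epithelial markers, 6 were tested. All 6 were called higher in D2.OR than in D2A1 in 2D (edgeR adjusted p under 0.05), where 25.4% of all tested genes were. In 3D, 5 were called higher, against 27.7% of all tested genes. The summed level of the 8 markers was 205.2 to 297 TPM (transcript abundance corrected for gene length and library size) in D2A1 2D and 94.0 to 220.6 in D2A1 3D. It was 1167 to 1723 TPM in D2.OR 2D and 424.9 to 879.1 in D2.OR 3D. In D2A1, Epcam, Cdh1, Krt7 and Krt14 stayed at or below 0.28 TPM, so their calls rest on the D2.OR levels and are no evidence beyond those levels. Krt18 was at 204.3 to 294.5 TPM in D2A1 2D and 92.71 to 217.8 in D2A1 3D, most of the summed level there. Krt5 was at or below 0.03 TPM in every library of both lines. Of 6 markers of other cell types, Ptprc, Cd3e, Cdh5 and Pecam1 stayed at or below 0.4 TPM in every library, Adipoq reached 2.03 TPM in 1 D2.OR 3D library, and Cd68 ranged from 2.22 to 32.13 TPM. Their summed level was 7.02 to 32.59 TPM in D2A1 2D, 5.94 to 10.27 in D2A1 3D, 2.36 to 5.65 in D2.OR 2D and 4.17 to 8.93 in D2.OR 3D. Epithelial markers move with the line in every comparison of lines below, and their part in those results was not tested.

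The respiratory chain passes electrons from NADH (complex I) and succinate (complex II) through coenzyme Q, complex III and cytochrome c to oxygen at complex IV, and the proton gradient built on the way drives ATP synthase, complex V. Complex II is made from nuclear genes alone, while the other complexes join nuclear subunits to a core translated inside the mitochondrion from mitochondrial DNA. Nuclear subunit genes are often described as responding together to the factors NRF1, GABP and YY1 and to coactivators of the PGC-1 family, whereas mitochondrial DNA is transcribed from its own promoters by a dedicated polymerase.

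To describe the promoters of these genes, windows were taken around the RefSeq start site (GRCm38.p6, the build of the deposited table). They ran from 250 bases before to 50 bases after it. The windows were searched on both strands for the letters GCGCANGCG (NRF1), CCGGAAG (GABP and other ETS factors) and AAGATGGC (YY1). The last 3 letters of the ETS motif can be the first 3 of the YY1 motif, and NRF1 matches on opposite strands can overlap. A window was matched for 74 of the 93 nuclear genes. The NRF1 letters were in 28.4% of these windows, against 9.26% of 16356 windows of protein-coding genes, the ETS letters in 23% against 12.3%, and the YY1 letters in 12.2% against 3.28%. Any of the 3 motifs was in 52.7% of the respiratory windows and in 21.9% of all windows. A match is a description of the letters and not a bound site. The 250 bases before the start are printed below for 3 genes that were lower in D2.OR in both cultures and for Cox7a2l, which was higher in both. These genes were picked for their differences and do not stand for the group. The NRF1 letters were in 27% of windows of genes lower in both cultures and in 29.7% of the others. Atp5o and Atp5g1, also lower in both cultures, have no match in their 250 bases. The shares of all motifs in lower and other genes are given further on. The capitals mark NRF1 letters, and none of the other motifs is in these 4 stretches. Ndufb4 (chr16:37654369-37654618, minus strand) holds 3 matches, Ndufa5 (chr6:24527691-24527940, minus strand) 1, Ndufaf4 (chr4:24897833-24898082, plus strand) 1 run that matches on both strands, and Cox7a2l (chr17:83514334-83514583, minus strand) 0.
Ndufb4: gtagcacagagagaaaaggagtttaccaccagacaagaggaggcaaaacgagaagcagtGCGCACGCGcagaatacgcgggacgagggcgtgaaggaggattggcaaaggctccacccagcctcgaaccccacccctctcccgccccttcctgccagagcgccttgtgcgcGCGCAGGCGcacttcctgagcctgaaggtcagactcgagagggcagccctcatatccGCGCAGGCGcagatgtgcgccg
Ndufa5: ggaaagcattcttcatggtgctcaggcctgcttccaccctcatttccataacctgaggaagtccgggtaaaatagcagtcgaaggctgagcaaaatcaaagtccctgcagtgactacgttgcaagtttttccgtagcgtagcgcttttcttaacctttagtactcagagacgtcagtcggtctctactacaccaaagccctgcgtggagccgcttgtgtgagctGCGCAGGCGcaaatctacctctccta
Ndufaf4: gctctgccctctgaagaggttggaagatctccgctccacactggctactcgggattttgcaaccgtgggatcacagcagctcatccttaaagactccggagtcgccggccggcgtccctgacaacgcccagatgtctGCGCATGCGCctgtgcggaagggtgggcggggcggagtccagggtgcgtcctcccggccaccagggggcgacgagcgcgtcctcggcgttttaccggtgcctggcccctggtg
Cox7a2l: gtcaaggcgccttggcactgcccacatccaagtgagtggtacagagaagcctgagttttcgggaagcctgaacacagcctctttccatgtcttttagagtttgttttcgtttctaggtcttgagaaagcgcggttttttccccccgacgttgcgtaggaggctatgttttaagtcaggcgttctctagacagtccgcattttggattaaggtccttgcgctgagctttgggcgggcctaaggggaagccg

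The first comparison asked how the lines differ at a given culture. Of the nuclear respiratory genes, more were lower than higher in D2.OR in both cultures, while 1 of the 13 mitochondrial genes passed a test, mt-Co3, higher in 2D. In 2D, 47 of the 101 tested genes were lower in D2.OR and 8 were higher at an edgeR adjusted p under 0.05, where 24.4% of all tested genes were lower and 25.4% higher. In 3D, 50 were lower and 6 higher, against 26.1% and 27.7% of all tested genes. With these settings every lower gene was nuclear. Of the tested genes, 41 were lower in both cultures, 4 were higher in both (Ndufa3, Ndufa13, Cox7a2l and Atp5d), 10 were called in 2D alone, 11 in 3D alone and 35 in neither, and none was called in opposite directions. The median log2 fold change of the 78 tested nuclear subunits was -0.32 in 2D and -0.33 in 3D, 19.8% and 20.7% lower, while the median of all tested genes was -0.003 and 0.001. Within batches 1, 2 and 3 the subunit median was -0.28, -0.33 and -0.37 in 2D and -0.49, -0.19 and -0.34 in 3D, below 0 each time. In bulk RNA, fewer cells of a type and less RNA per cell cannot be told apart.

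The number of higher genes in 2D moved with the settings. It was 8 with DESeq2 size factors and 2 with only the 6 libraries compared. With library totals alone in place of TMM factors, 0 were higher and 66 lower in 2D and 4 were higher and 63 lower in 3D, where 52.3% and 55.4% of all genes were called, against 49.8% and 53.8% with TMM factors. That scaling moved the median of all genes to -0.167 in 2D and -0.1 in 3D. With limma on log2(TPM + 1), 2 were higher and 65 lower in 2D, where 47.2% of all genes were called. Without batch 2 the 2D counts were 1 higher and 25 lower, where 24.9% of all genes were called, and without batch 3 they were 1 and 21, against 31.8% of all genes. In 3D they were 0 higher and 38 lower without batch 2, against 31% of all genes, and 1 and 23 without batch 3, against 35.2%. Among single libraries, leaving out batch 2 or batch 3 of D2.OR in 2D took the 2D total from 55 to 35 or 36, where 37.4% and 39.1% of all genes were called.

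**Figure D1:**
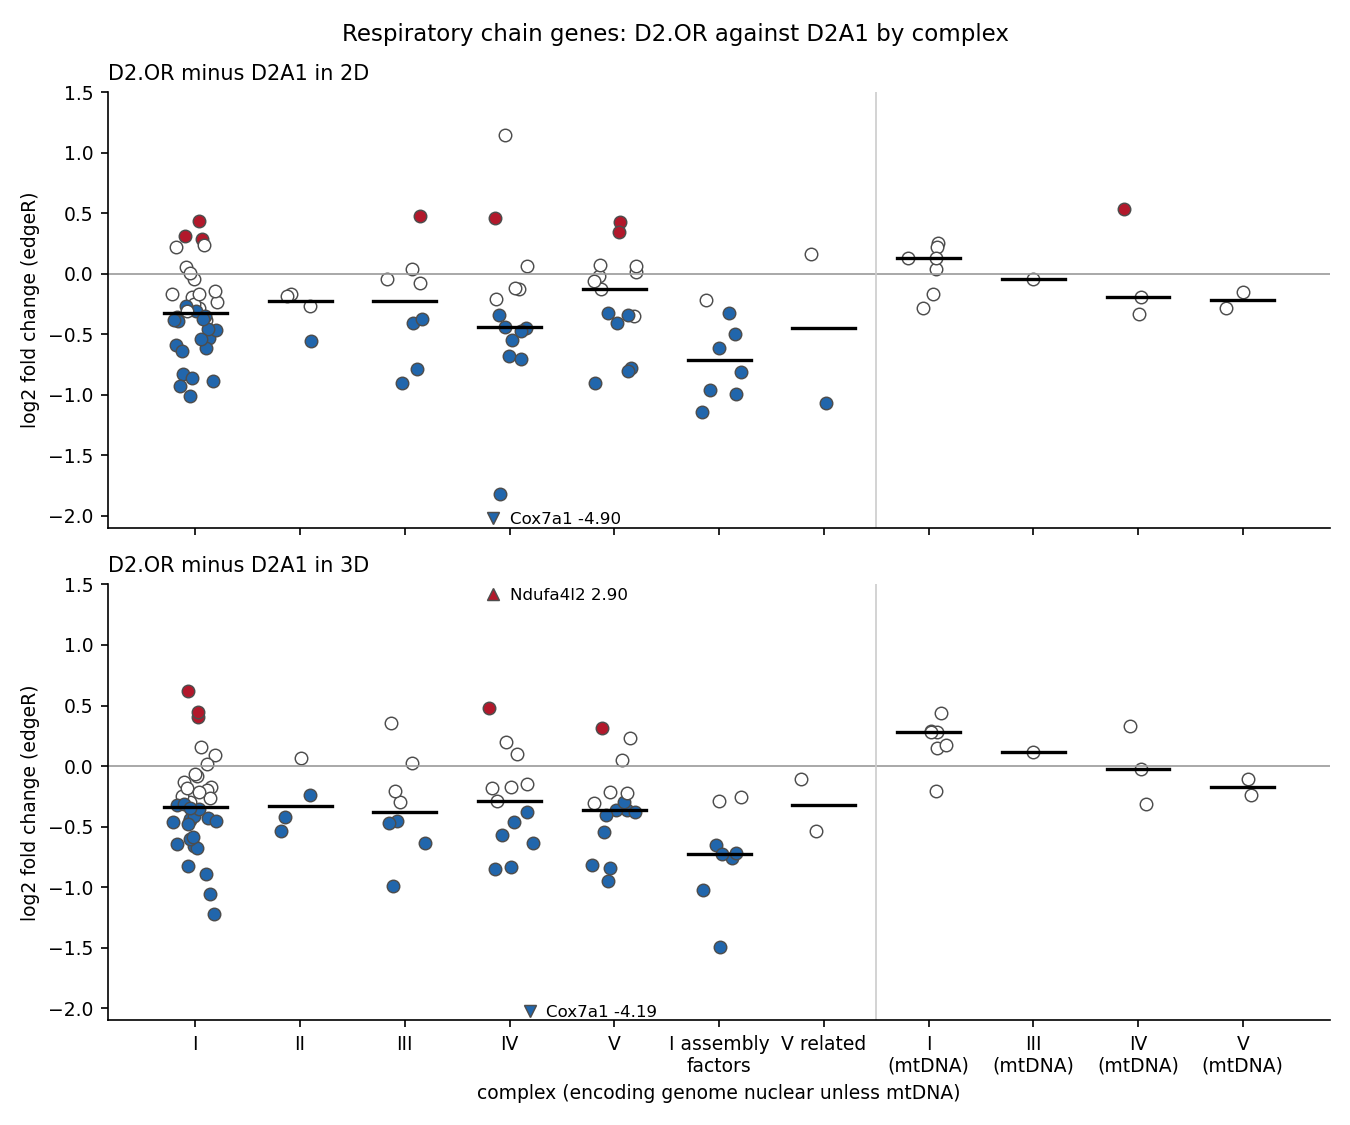
Fitted log2 fold change of each tested gene, D2.OR minus D2A1, in 2D (top) and 3D (bottom), by complex and encoding genome. Each point is a gene, filled where the edgeR adjusted p was under 0.05 (blue lower, red higher in D2.OR), bars are medians, and triangles at the edge stand for 3 values beyond the axis, printed beside them. The medians of the nuclear groups lie below 0 in both panels, and 1 mitochondrial gene, mt-Co3 in 2D, is filled.

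By complex, the median log2 fold change of the nuclear subunits in 2D and 3D was -0.33 and -0.33 for complex I, -0.22 and -0.33 for complex II, -0.23 and -0.38 for complex III, -0.44 and -0.28 for complex IV and -0.13 and -0.36 for complex V. No complex stood above the median of all genes in either culture. The difference between complexes was not tested, because genes of a complex are not replicates.

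Complex I takes electrons from NADH. Of its 36 nuclear subunits, 19 were lower and 3 higher in D2.OR in 2D, against 24.4% and 25.4% of all tested genes. In 3D, 21 were lower and 3 higher, against 26.1% and 27.7%. These shares are also the background for the core and accessory subunits. The 7 nuclear core subunits, which carry the flavin and the iron-sulfur clusters, held 3 lower genes in each culture with medians of -0.28 and -0.22, and the 29 accessory subunits held 16 and 18 lower genes with medians of -0.36 and -0.41. Ndufa5 (chr6:24518666-24528013), an accessory subunit of the matrix arm, changed most. Its level in batches 1, 2 and 3 was 150.5, 126.6 and 134.6 TPM in D2A1 2D, 175.8, 143.4 and 159.8 in D2A1 3D, 54.7, 64.0 and 64.9 in D2.OR 2D and 69.3, 75.1 and 68.0 in D2.OR 3D. The highest D2.OR library lay below the lowest D2A1 library. The log2 fold change was -1.01 (SE 0.14, adjusted p = 0.000374, 2.01-fold lower) in 2D and -1.22 (SE 0.14, adjusted p = 0.000115, 2.34-fold lower) in 3D. Ndufb4 (chr16:37647170-37654453), an accessory subunit of the membrane arm, was at 70.5, 77.5 and 81.3 TPM in D2A1 2D and 79.0, 86.0 and 79.2 in D2A1 3D, against 35.7, 38.7 and 37.2 in D2.OR 2D and 40.7, 45.3 and 35.5 in D2.OR 3D. The lines did not overlap, with log2 fold changes of -0.89 in 2D (SE 0.10, adjusted p = 0.000133) and -1.06 in 3D (SE 0.10, adjusted p = 4.41e-05).

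Ndufb8, an accessory subunit of the membrane arm, was called in 3D (log2 fold change -0.64, adjusted p = 0.00417, lost without batch 3 with adjusted p = 0.0506) and had a log2 fold change of -0.14 in 2D (adjusted p = 0.428). Its level was 318.6, 245.9 and 266.4 TPM in D2A1 2D, 347.7, 367.0 and 364.4 in D2A1 3D, 221.0, 232.2 and 226.6 in D2.OR 2D and 200, 257.2 and 237.9 in D2.OR 3D. D2A1 in 3D stood above the other 3 groups. The difference between the line differences was -0.50 on the log2 scale (edgeR interaction, adjusted p = 0.24), which did not pass the test.

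Against the direction of the group, Ndufa3 and Ndufa13, accessory subunits, were higher in D2.OR in both cultures. Ndufa3 (chr7:3617373-3620327) was at 135.2, 119.0 and 106.4 TPM in D2A1 2D, 122.4, 98.2 and 77.8 in D2A1 3D, 153.8, 151.1 and 142.4 in D2.OR 2D and 142.9, 162.8 and 160.2 in D2.OR 3D. The D2.OR libraries all lay above the D2A1 libraries. Its log2 fold change was 0.43 in 2D (SE 0.14, adjusted p = 0.0272) and 0.62 in 3D (SE 0.14, adjusted p = 0.0048), and the call was lost in 10 of 25 alternatives in 2D, where the adjusted p ranged from 0.00527 to 0.24, and without batch 2 or batch 3 in 3D, where it ranged up to 0.0867. Ndufa13 had log2 fold changes of 0.31 in 2D (adjusted p = 0.0298) and 0.40 in 3D (adjusted p = 0.00804), and its calls were lost in 15 of 25 alternatives in 2D and 2 in 3D. Ndufs7, a core subunit that binds an iron-sulfur cluster, was called higher in 3D (0.45, adjusted p = 0.0105, lost in 5 of 25 alternatives with adjusted p up to 0.163) and was at 0.24 in 2D (adjusted p = 0.125).

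**Figure D2:**
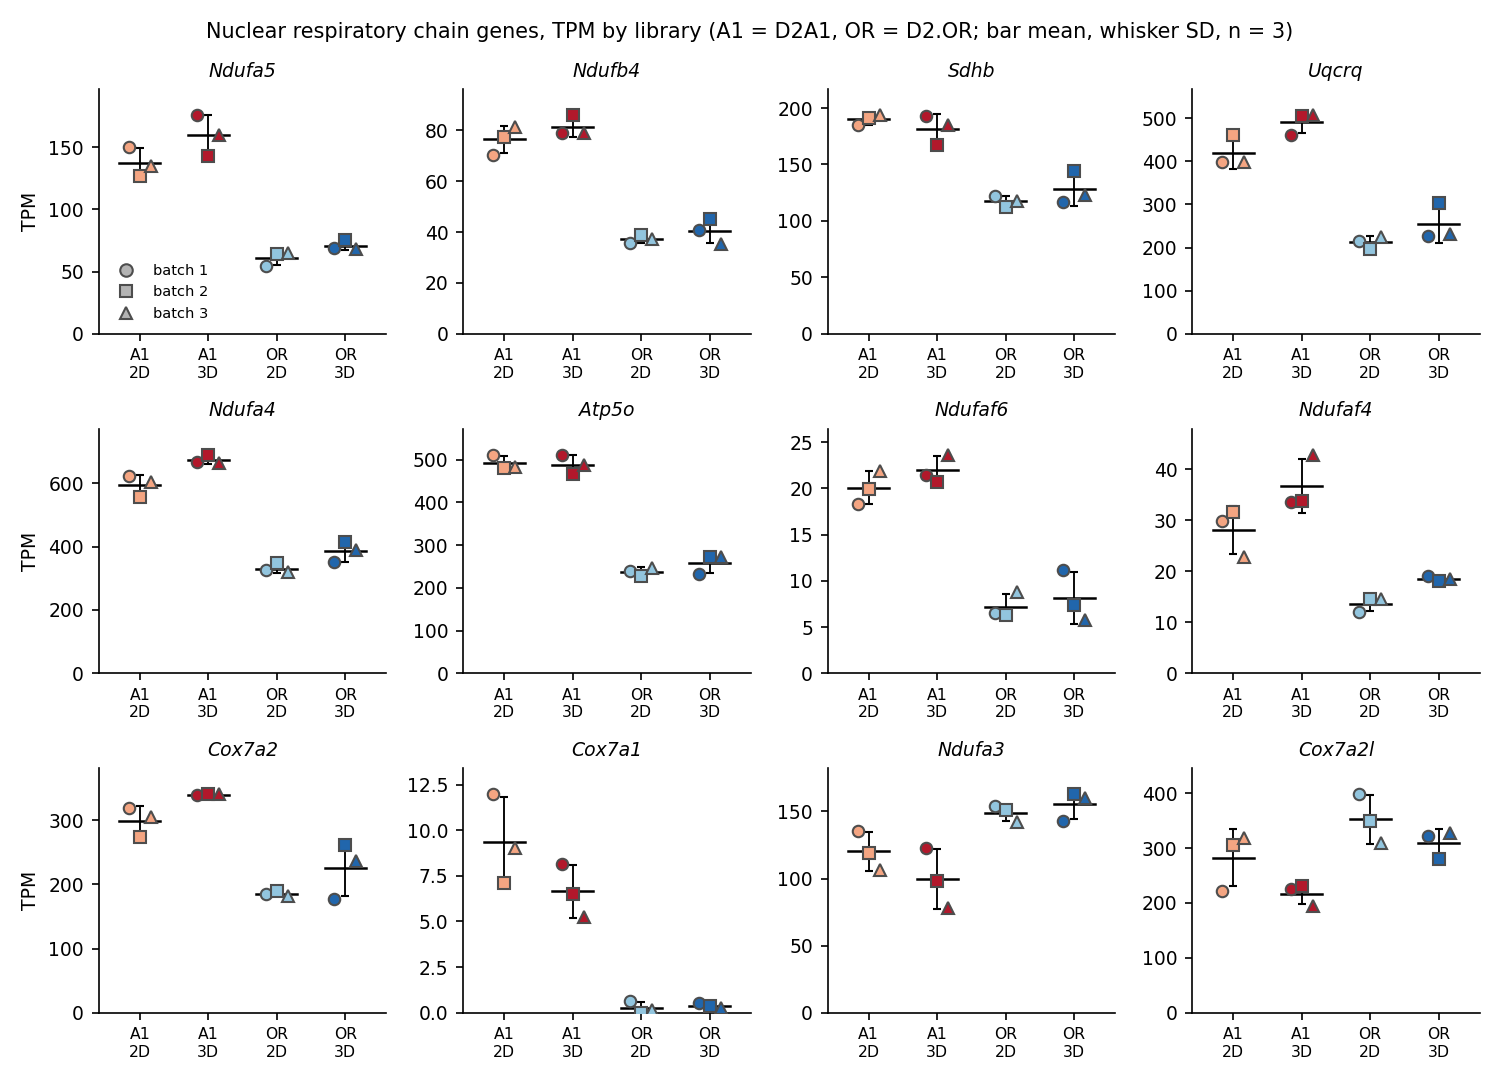
TPM of 12 nuclear genes in each library (points, shaped by batch) with the mean of 3 libraries (bar) and its SD (whisker), and axes that start at 0. In the panels of Ndufa5, Ndufb4, Sdhb, Uqcrq, Ndufa4, Atp5o, Ndufaf6 and Ndufaf4 the 6 D2.OR libraries lie below the 6 D2A1 libraries, Cox7a1 is near 0 in D2.OR, and Ndufa3 and Cox7a2l are higher in D2.OR on average.

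Complex II, succinate dehydrogenase, also works in the citric acid cycle and has no mitochondrially encoded subunit. Its iron-sulfur subunit Sdhb was at 184.7, 191.2 and 193.6 TPM in D2A1 2D, 192.7, 167.6 and 184.7 in D2A1 3D, 122.0, 112.3 and 117.6 in D2.OR 2D and 116.8, 144.2 and 122.9 in D2.OR 3D. The lines did not overlap, and the log2 fold change was -0.56 in 2D (SE 0.11, adjusted p = 0.0023) and -0.54 in 3D (SE 0.11, adjusted p = 0.00248), with the 3D call lost without batch 3 (adjusted p = 0.0541). The membrane anchors Sdhc and Sdhd were called lower in 3D, by -0.24 (adjusted p = 0.0274, lost in 11 of 25 alternatives) and -0.42 (adjusted p = 0.0108), and had values of -0.17 (adjusted p = 0.0959) and -0.26 (adjusted p = 0.0753) in 2D, called lower in 3 and 5 of 25 alternatives. The 3D call of Sdhd was lost in 1. The catalytic flavoprotein Sdha had values of -0.18 in 2D (adjusted p = 0.215) and 0.07 in 3D (adjusted p = 0.652), and was called lower in 2D in 3 of 25 alternatives (adjusted p down to 0.027). Its levels did not overlap in 2D, with 137.6, 132.4 and 144.9 TPM in D2A1 and 117.5, 104.8 and 100 in D2.OR, and overlapped in 3D, with 138.6, 102 and 112 TPM in D2A1 and 124.4, 139.1 and 115 in D2.OR. The mean level of Sdhb was 189.8 ± 4.63 TPM (SD, n = 3) in D2A1 2D and 117.3 ± 4.82 in D2.OR 2D, and that of Sdha was 138.3 ± 6.29 and 107.4 ± 9.06.

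Complex III moves electrons from coenzyme Q to cytochrome c. In 2D, 4 of its 8 nuclear genes were lower and 1 was higher, against 24.4% and 25.4% of all tested genes. In 3D, 4 were lower and 0 higher, against 26.1% and 27.7%. Uqcrq, a small subunit that binds near cytochrome b, was at 398.1, 460.3 and 398.1 TPM in D2A1 2D, 461.8, 504.1 and 506.8 in D2A1 3D, 214.7, 196.2 and 225.0 in D2.OR 2D and 226.4, 303.1 and 231.4 in D2.OR 3D. It was 1.73-fold lower in D2.OR in 2D (log2 fold change -0.79, SE 0.12, adjusted p = 0.000766) and 1.99-fold lower in 3D (-0.99, SE 0.12, adjusted p = 0.000196), with no overlap. Uqcr10 was lower in both cultures too, by -0.90 and -0.63. Uqcr11, another small subunit, was called higher in 2D with 0.48 (adjusted p = 0.0432), was at 0.36 in 3D (adjusted p = 0.103, called in 4 of 25 alternatives), and lost the 2D call in 15. Its levels were 264.2, 179.8 and 205.4 TPM in D2A1 2D and 268.4, 273.4 and 268.9 in D2.OR 2D, which did not overlap, though the batch 1 library of D2A1 lay just below the D2.OR libraries. The larger subunits differed among themselves: Uqcrc1 was lower in both cultures (-0.41 and -0.46), while Uqcrc2 was at 0.04 and 0.03 and passed neither test.

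Complex IV, cytochrome c oxidase, reduces oxygen. Of its 20 nuclear genes, 15 were tested. In 2D, 9 were lower and 1 higher, against 24.4% and 25.4% of all tested genes, and in 3D 7 and 2, against 26.1% and 27.7%. Ndufa4, first counted with complex I and now placed in complex IV, was at 621.6, 556.9 and 602.8 TPM in D2A1 2D, 666.9, 690.0 and 664.1 in D2A1 3D, 324.5, 347.2 and 320.4 in D2.OR 2D and 349.8, 414.3 and 389.5 in D2.OR 3D. It was 1.6-fold lower in 2D (log2 fold change -0.68, SE 0.10, adjusted p = 0.000462) and 1.78-fold lower in 3D (-0.83, SE 0.10, adjusted p = 0.000136). Cox7b had log2 fold changes of -0.71 and -0.85, and Cox8a, the ubiquitous isoform of subunit 8, -0.47 and -0.46, all called, with those of Cox8a lost in 2 of 25 alternatives in each culture. Cox4i1, the ubiquitous isoform of the largest nuclear subunit, had a mean level of 1150 ± 33.6 TPM in D2A1 2D and 1088 ± 84.8 in D2.OR 2D (SD, n = 3) and its log2 fold changes of 0.06 and 0.10 passed neither test. In 2D the mean TPM was lower in D2.OR while the fitted value was above 0, and the fitted value ranged from -0.10 to 0.15 over the alternatives. Cox6c, Cox7c and Cox6b1 also passed neither test, with values from -0.21 to -0.12.

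The isoform pairs of complex IV hold the largest log2 values, at low levels. Cox7a1, known from heart and skeletal muscle, was at 11.97, 7.13 and 9.01 TPM in D2A1 2D and 8.16, 6.53 and 5.27 in D2A1 3D. In D2.OR it was at 0.63, 0 and 0.15 TPM in 2D (6, 0 and 1 counts) and at 0.53, 0.37 and 0.25 TPM in 3D (4, 3 and 2 counts). It passed the filter on low counts only through D2A1, the line in which it is high, so its call in both line comparisons, counted above, is no evidence beyond these counts. The fitted log2 fold changes of -4.90 and -4.19 depend on how such counts are moderated and ranged from -6.36 to -3.05 and from -4.39 to -2.46 over the alternatives. Its ubiquitous partner Cox7a2 was at 318.6, 274.5 and 304.7 TPM in D2A1 2D and 185.5, 190.2 and 181.3 in D2.OR 2D, with log2 fold changes of -0.55 in 2D (adjusted p = 0.0119, lost in 3 of 25 alternatives) and -0.64 in 3D (adjusted p = 0.00522, lost in 1). Cox6a2, a second muscle isoform, was at 0.97, 5.61 and 7.02 TPM in D2A1 2D, and at 0.81 to 2.92 TPM in the other 3 groups. The batch 1 library of D2A1 in 2D lay with the other groups (14 counts, against 98 and 114), and the 2D log2 fold change of -1.82 (adjusted p = 0.013) lost its call in 7 of 25 alternatives. Ndufa4l2, the hypoxia-linked relative of Ndufa4, had 5, 1 and 0 counts in D2A1 3D and 15, 14 and 8 in D2.OR 3D, below 1 TPM throughout. It passed the filter only through D2.OR, the line in which it is high, so its call in 3D is likewise no evidence beyond the counts, and its fitted log2 fold change of 2.90 ranged from 0.45 to 4.07 over the alternatives.

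Cox7a2l (chr17:83501919-83514333), which links complexes III and IV in supercomplexes, was higher in D2.OR in both cultures. Its level was 222.5, 306.3 and 318.8 TPM in D2A1 2D, 225.8, 231.1 and 194.4 in D2A1 3D, 398.0, 348.7 and 309.6 in D2.OR 2D and 321.9, 280.1 and 327.0 in D2.OR 3D. The groups overlapped in 2D, where the lowest D2.OR library lay below the highest D2A1 library, and did not overlap in 3D. The log2 fold change was 0.46 in 2D (SE 0.16, adjusted p = 0.036) and 0.48 in 3D (SE 0.16, adjusted p = 0.0282). The call was lost in 11 of 25 alternatives in 2D, among them without the batch 1 library of D2A1 in 2D, and in 7 of 25 in 3D.

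Complex V makes ATP. In 2D, 6 of its 15 nuclear genes were lower and 2 higher, against 24.4% and 25.4% of all tested genes. In 3D, 9 were lower and 1 higher, against 26.1% and 27.7%. Atp5o, the stalk subunit that gives oligomycin sensitivity, was at 511.9, 480.9 and 483.7 TPM in D2A1 2D, 511.5, 465.9 and 487.0 in D2A1 3D, 240.2, 227.7 and 246.8 in D2.OR 2D and 231.8, 272.8 and 271.6 in D2.OR 3D. It was 1.88-fold lower in 2D (log2 fold change -0.91, SE 0.10, adjusted p = 0.000111) and 1.93-fold lower in 3D (-0.95, SE 0.10, adjusted p = 7.78e-05), with no overlap between lines. The catalytic subunits Atp5a1 and Atp5b passed neither test, with values of 0.07 and 0.06 in 2D and -0.23 and 0.05 in 3D. Within the same enzyme, the values ranged from -0.91 to 0.43 in 2D. The genes Atp5g1, Atp5g2 and Atp5g3 encode the same mature c subunit of the rotor behind different import signals. Atp5g1 was lower in both cultures, with 359.5, 373.6 and 326.8 TPM in D2A1 2D against 175.7, 183.0 and 192.5 in D2.OR 2D (log2 fold change -0.80, adjusted p = 0.000492) and -0.84 in 3D (adjusted p = 0.00034). Atp5g3, the most abundant of these genes in D2A1 with means of 807.5 ± 73.4 TPM in 2D and 870.8 ± 13.7 in 3D (SD, n = 3), had values of -0.35 in 2D (adjusted p = 0.059, called in 8 of 25 alternatives) and -0.38 in 3D (adjusted p = 0.0396), and Atp5g2 of -0.06 (adjusted p = 0.679) and -0.30 (adjusted p = 0.0434). Both 3D calls were lost in 9 and 15 of 25 alternatives. Of the stalk subunits, Atp5d was higher in both cultures (0.34, adjusted p = 0.0279, and 0.31, adjusted p = 0.0382), a call lost in 11 and 10 of 25 alternatives, and Atp5e was lower in 3D (-0.37, adjusted p = 0.0187, lost in 5 of 25) with -0.13 in 2D (adjusted p = 0.366, called in 3). Atp5l, a subunit at the dimer interface, was higher in 2D (0.43, adjusted p = 0.00921, lost in 3 of 25) and at 0.24 in 3D (adjusted p = 0.0896, called in 3).

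Of the complex I assembly factors, 7 of 8 were lower in D2.OR in 2D, where 24.4% of all tested genes were lower, and 6 of 8 in 3D, against 26.1%, with medians of -0.71 and -0.72 and batch medians between -0.91 and -0.56. Their summed level was 203.8 to 214.3 TPM in D2A1 2D and 205.1 to 224.4 in D2A1 3D, against 118.1 to 119.2 in D2.OR 2D and 121.8 to 141.9 in D2.OR 3D, without overlap. Ndufaf6 (chr4:11051045-11076205), needed to build the complex I core, was at 18.4, 19.9 and 21.9 TPM in D2A1 2D, 21.4, 20.7 and 23.6 in D2A1 3D, 6.57, 6.27 and 8.79 in D2.OR 2D and 11.2, 7.42 and 5.71 in D2.OR 3D. It was 2.2-fold lower in 2D (log2 fold change -1.14, SE 0.18, adjusted p = 0.000763) and 2.81-fold lower in 3D (-1.49, SE 0.18, adjusted p = 0.000156). Ndufaf4 was 1.94-fold and 2.03-fold lower (adjusted p = 0.00103 and 0.000636), and Ndufaf5, a modifier of the core subunit Ndufs7, 1.99-fold and 1.69-fold lower (adjusted p = 0.000197 and 0.000759). Ndufaf2, Ndufaf3 and Ndufaf8 were lower in both cultures with values from -0.81 to -0.50. Ndufaf2 kept its calls in all 25 alternatives, while Ndufaf3 lost its call in 3 in 2D and 1 in 3D, and Ndufaf8 in 7 and 1. Ndufaf7, a methyltransferase for a core subunit, was lower in 2D (-0.33, adjusted p = 0.0254, lost in 7 of 25 alternatives) and at -0.25 in 3D (adjusted p = 0.0623, called in 3), and Ndufaf1 passed neither test (-0.22 and -0.29). Atp5s was lower in 2D (-1.06, adjusted p = 0.00286), with a call lost without batch 2 or batch 3, and was at -0.54 in 3D (adjusted p = 0.0543, called in 8 of 25).

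Of the 37 windows of genes lower in both cultures, 27% held the NRF1 letters, 13.5% the ETS letters and 8.11% the YY1 letters, and of the 37 windows of the other nuclear genes 29.7%, 32.4% and 16.2% did. Any of the 3 motifs was in 43.2% of the former and 62.2% of the latter, a difference that was not tested. Ndufa4, 1.6-fold lower in 2D, had none of the 3 motifs in its window.

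The 13 genes of mitochondrial DNA encode 7 subunits of complex I, cytochrome b of complex III, 3 catalytic subunits of complex IV and 2 subunits of the membrane part of complex V. They lie on chromosome M between positions 2751 and 15288, all but mt-Nd6 on the plus strand. mt-Atp8 (7766 to 7969) overlaps mt-Atp6 (7927 to 8607), and mt-Nd4l (9877 to 10173) overlaps mt-Nd4 (10167 to 11544). Each pair is read from a shared RNA, so reads in the overlap and levels within a pair are uncertain. Whether the libraries kept strand is not given in the sources used here, so reads of mt-Nd6 and of transcripts from the other strand cannot be told apart.

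Among all 13, mt-Co3 in 2D alone passed a line test with the settings used throughout. Its level was 748.6, 504.1 and 615.4 TPM in D2A1 2D, 644.6, 527.1 and 506.2 in D2A1 3D, 950.3, 578.6 and 940.8 in D2.OR 2D and 1018, 571.1 and 646.4 in D2.OR 3D. Batch 2 was lowest in 3 of the 4 groups, the lines overlapped, and within a batch D2.OR was higher each time in 2D. The log2 fold change was 0.53 in 2D (SE 0.14, adjusted p = 0.0133), lost in 6 of 25 alternatives, and 0.33 in 3D (SE 0.14, adjusted p = 0.0806). The other subunits of the same enzyme had values of -0.34 (mt-Co1) and -0.19 (mt-Co2) in 2D and -0.03 and -0.32 in 3D, and none of these passed. Alternatives added 2D calls in either direction: mt-Atp6 was lower in 5 of 25 (adjusted p down to 0.0187), mt-Co1 in 3 (log2 fold change down to -0.58), and mt-Nd4 and mt-Nd4l in 2 each, while mt-Nd3 was higher in 2 and mt-Nd2 in 1. Library totals alone gave the lower calls of mt-Atp6, mt-Co1 and mt-Nd4 among these, and leaving out batch 1 gave a call for each of the 6 genes.

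The 7 mitochondrial complex I genes had a median of 0.12 in 2D and 0.28 in 3D, and none passed. The nearest was mt-Nd1, with 0.25 in 2D and 0.44 in 3D (adjusted p = 0.303 and 0.0767). Its 3D difference was called in 4 of 25 alternatives, with DESeq2 and without batch 1, the batch 1 library of D2A1 in 2D or that of D2.OR in 3D, with log2 fold changes up to 0.67 and adjusted p down to 0.00429. It was at 2780, 2489 and 2557 TPM in D2A1 2D, 2590, 2916 and 3034 in D2A1 3D, 2781, 2978 and 2760 in D2.OR 2D and 2802, 5169 and 4062 in D2.OR 3D. The batch 2 and batch 3 libraries of D2.OR in 3D stood above the other 10, and the batch 1 library lay with them. mt-Nd2 was at 1620, 3347 and 3283 TPM in D2.OR 3D and at 1793 to 2604 TPM in the other groups, so that the D2.OR 3D libraries were both the lowest and the highest, and its log2 fold changes were 0.13 in 2D and 0.15 in 3D. mt-Nd3, mt-Nd4, mt-Nd4l, mt-Nd5 and mt-Nd6 had values of 0.22, -0.17, -0.29, 0.04 and 0.12 in 2D and 0.29, 0.17, -0.21, 0.28 and 0.28 in 3D. mt-Cytb was at 4605, 5456 and 5898 TPM in D2A1 2D and 4506, 5205 and 4313 in D2.OR 2D, with -0.04 in 2D and 0.12 in 3D. mt-Atp6 and mt-Atp8 had -0.29 and -0.15 in 2D and -0.10 and -0.24 in 3D. None of these passed, with adjusted p-values of 0.104 or more. Alternatives added 3D calls for mt-Nd3 in 3 of 25, for mt-Co2 in 2 and for mt-Atp8, mt-Co3, mt-Nd2, mt-Nd5 and mt-Nd6 in 1 each, lower for mt-Co2 and mt-Atp8 and higher for the others.

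**Figure D3:**
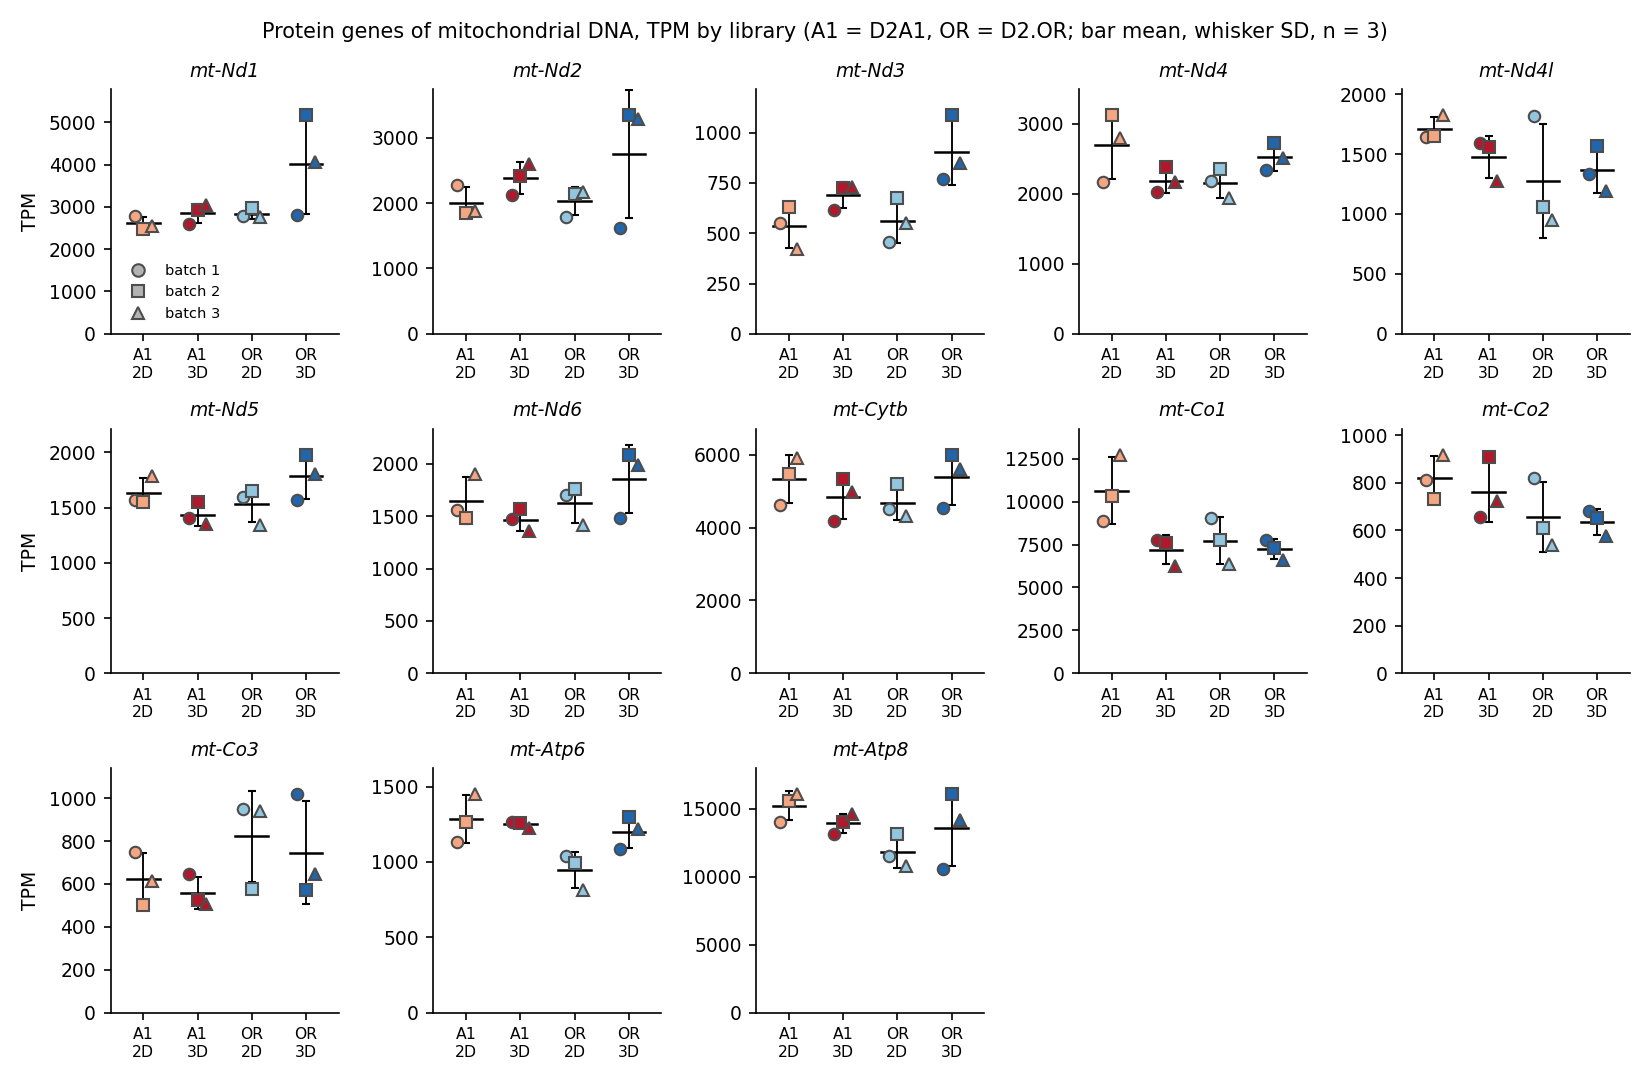
TPM of the 13 protein genes of mitochondrial DNA in each library (points, shaped by batch) with the mean of 3 libraries (bar) and its SD (whisker), and axes that start at 0. The groups overlap in most panels, and in mt-Nd1 and mt-Nd2 the batch 2 and batch 3 libraries of D2.OR in 3D lie highest.

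Nuclear and mitochondrial genes were then set side by side. The median of the nuclear subunits minus that of the mitochondrial genes was -0.27 on the log2 scale in the line comparison on plastic (2D) and -0.48 in 3D. In sums of counts, the 93 nuclear genes took 1.01%, 0.9525% and 0.9754% of a library in D2A1 2D and 1.062% to 1.102% in D2A1 3D, against 0.7251% to 0.7954% in D2.OR 2D and 0.7108% to 0.9457% in D2.OR 3D. The D2.OR libraries all lay below the D2A1 libraries. The 13 mitochondrial genes took 1.742% to 2.169% in D2A1 2D, 1.65% to 1.876% in D2A1 3D, 1.376% to 1.728% in D2.OR 2D and 1.532% to 1.957% in D2.OR 3D, so that D2.OR was lower in 2D, without overlap, and the lines overlapped in 3D. On the log2 scale the mitochondrial share differed by -0.012, -0.225 and -0.657 in batches 1, 2 and 3 in 2D, and the nuclear subunit share by -0.340, -0.374 and -0.424. Mitochondrial counts per nuclear subunit count were 1.75, 2.03 and 2.26 in D2A1 2D, 1.52, 1.79 and 1.61 in D2A1 3D, 2.20, 2.25 and 1.92 in D2.OR 2D and 2.18, 2.09 and 2.14 in D2.OR 3D. In 3D the 3 D2A1 libraries lay below the 3 D2.OR libraries, and D2.OR was higher in each batch, by 0.52, 0.23 and 0.41 on the log2 scale. In 2D the differences were 0.33, 0.15 and -0.23, not of the same sign, and without mt-Co1, which holds the largest share of these counts, they were 0.30, 0.30 and 0.06 in 2D and 0.55, 0.36 and 0.46 in 3D. How RNA was selected for these libraries is not given in the sources used here.

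**Figure D4:**
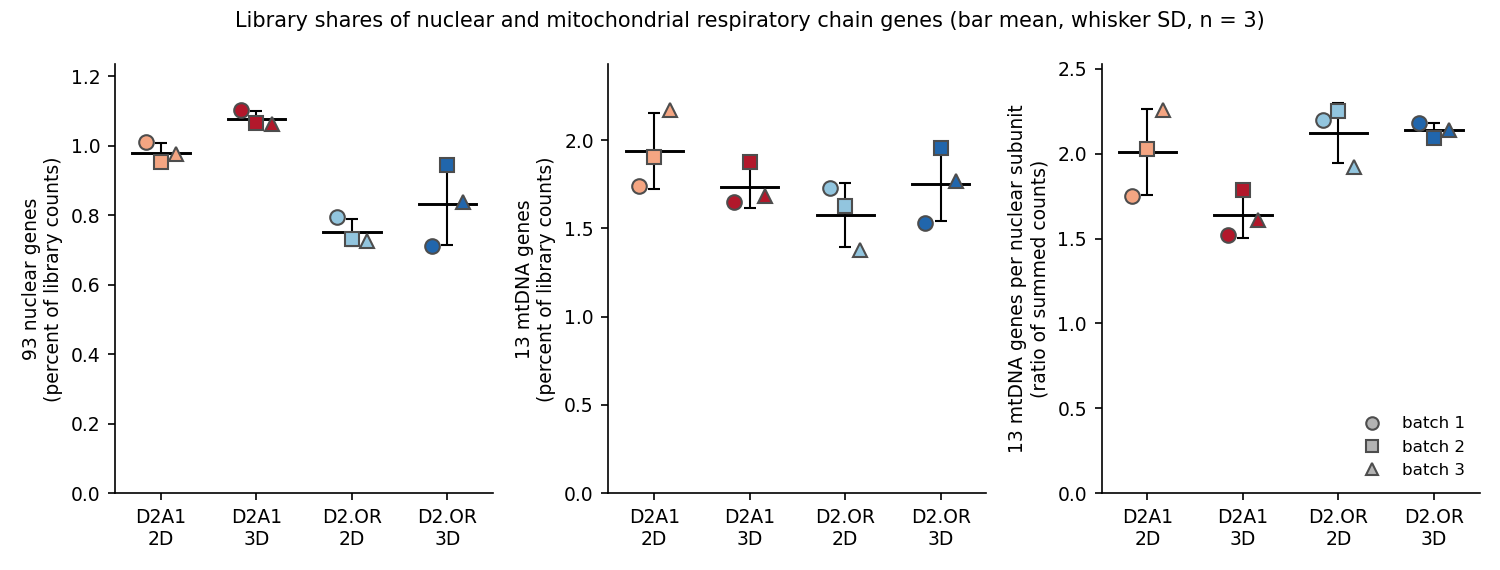
Left and middle, the percent of each library's counts on the 93 nuclear and the 13 mitochondrial genes. Right, mitochondrial counts per nuclear subunit count. Points are libraries, shaped by batch, with the mean (bar) and SD (whisker, n = 3) and axes from 0. The nuclear share is lower in the 6 D2.OR libraries (0.7108% to 0.9457%) than in the 6 D2A1 libraries (0.9525% to 1.102%).

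The second comparison asked what the 3D culture changes in each line. No respiratory gene passed the test in either line. In D2.OR, where 3D is the dormant state, 0 of 101 genes were called by edgeR, where 0.838% of all tested genes were higher in 3D and 0.785% lower, 4 had an unadjusted p under 0.05, and DESeq2 called 1, against 7.82% of all genes. In D2A1, 0 were called, where 1.37% of all tested genes were higher and 2.12% lower, 19 had an unadjusted p under 0.05, and DESeq2 called 11, all higher, against 23.6% of all genes. The batch 1 library of D2A1 in 2D stood apart: without it, 18 respiratory genes were higher and 5 lower in 3D in D2A1, where 30.3% of all genes were called, and without batch 1 altogether 23 were higher and 5 lower, where 36.3% of all genes were called. Without batch 1, 5 were higher in 3D in D2.OR and 0 lower, where 8.38% of all genes were called. In each of these fits the share of respiratory genes called was below that of all genes.

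The nuclear subunit median was 0.10 in D2.OR and 0.12 in D2A1 for 3D minus 2D. In D2A1 it was 0.10, 0.13 and 0.12 in batches 1, 2 and 3. In D2.OR it was -0.14, 0.26 and 0.12, and batch 1 had the opposite sign to the others in every nuclear complex. In D2A1 all 15 complex V subunits had values above 0, with a median of 0.23 and none passing the test. Of the 13 mitochondrial genes, 10 were above 0 in D2.OR and 6 in D2A1, with medians of 0.14 and -0.02. Their batch medians in D2.OR were -0.16, 0.21 and 0.37, where batch 1 again had the opposite sign to the others. In D2A1 these were -0.07, 0.16 and -0.13. The log2 ratio of mitochondrial to nuclear subunit counts differed between 3D and 2D by -0.203, -0.183 and -0.488 in batches 1, 2 and 3 of D2A1, below 0 each time, and by -0.009, -0.105 and 0.156 in D2.OR. A single gene, mt-Co1, held 33.7% to 48.4% of the mitochondrial counts in D2A1 and 31.1% to 43.5% in D2.OR. Without it, an alternative chosen after seeing the data, the differences were -0.165, -0.006 and -0.126 in D2A1 and 0.082, 0.051 and 0.276 in D2.OR.

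The gene with the smallest p in D2.OR was mt-Nd3, with 457.7, 674.8 and 549.2 TPM in 2D and 771.5, 1087 and 849.4 in 3D. The 3D libraries all lay above the 2D libraries, with a log2 fold change of 0.60 (SE 0.14, adjusted p = 0.0807). It was called in 6 of 25 alternatives, among them DESeq2, limma on log2(TPM + 1), only the 6 libraries compared and without batch 1, with adjusted p down to 0.0046. In D2A1 the log2 fold change was 0.53 (SE 0.15, adjusted p = 0.0624), with 552.5, 632.9 and 421.2 TPM in 2D and 614.6, 723.6 and 731.8 in 3D, and it was called in 3 of 25 alternatives (DESeq2, without batch 1 and without the batch 1 library of D2A1 in 2D, adjusted p down to 0.00462). In D2A1, mt-Co1 had -0.46 (adjusted p = 0.121), with 8884, 10300 and 12730 TPM in 2D and 7748, 7615 and 6237 in 3D, so that mitochondrial genes of the same strand had values of either sign. Among nuclear genes in D2A1, Ndufa2, an accessory subunit of complex I, had the smallest p, with 287.9, 302.4 and 291.9 TPM in 2D and 319.3, 354.0 and 336.7 in 3D (0.32, SE 0.09, adjusted p = 0.0619). Ndufb8, Atp5e and Uqcrq had 0.49, 0.38 and 0.41 (adjusted p = 0.066, 0.066 and 0.07). Each of these 4 nuclear genes was called in the same 3 alternatives as mt-Nd3 in D2A1, and mt-Co1 in 2 of them.

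**Figure D5:**
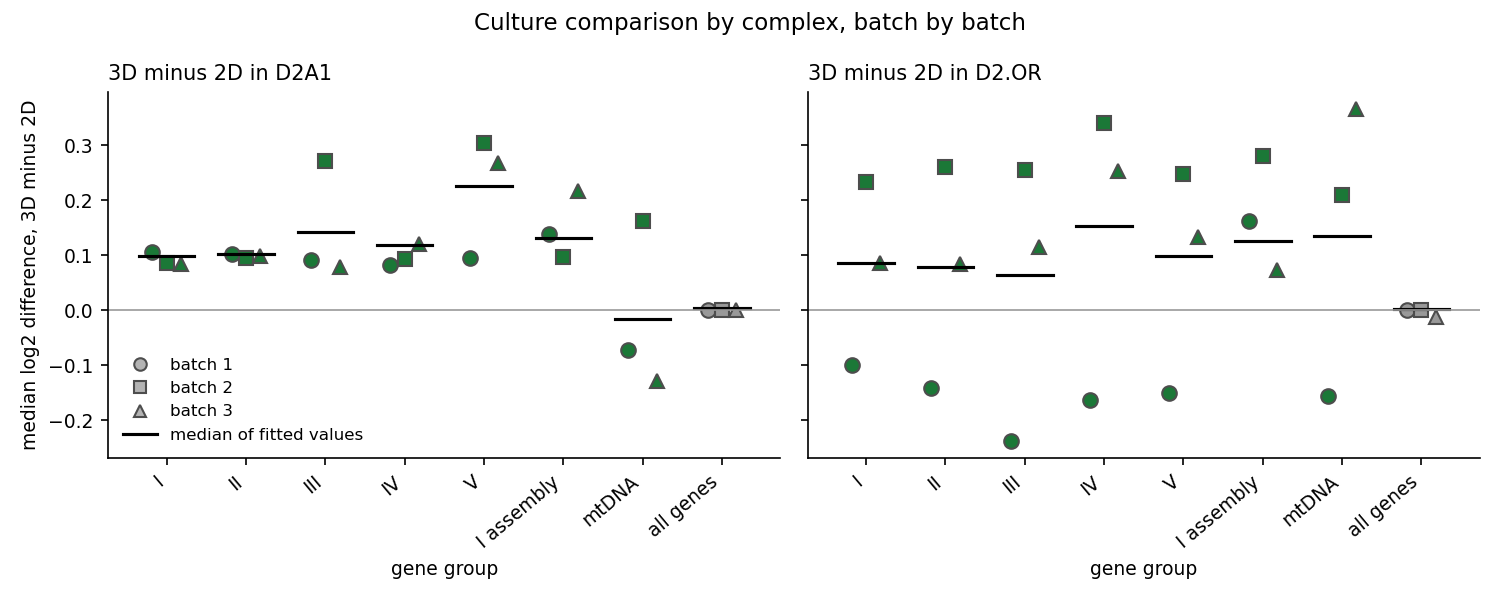
Median log2 difference between 3D and 2D for the nuclear subunits of each complex, the complex I assembly factors, the mitochondrial genes and all tested genes, in D2A1 (left) and D2.OR (right). Points are the medians within a batch, shaped by batch, and bars are medians of the fitted values. In D2A1 the points of the nuclear complexes lie above 0 in all 3 batches. In D2.OR the batch 1 points of complexes I to V and of the mitochondrial genes lie below 0.

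The third comparison, the interaction, asked whether the response to 3D differs between D2.OR and D2A1. No respiratory gene was called by edgeR, nor by DESeq2, which called 5.96% of all genes, 2 had an unadjusted p under 0.05, and 0.0178% and 0.00594% of all tested genes were called higher and lower. Without the batch 1 library of D2A1 in 2D, 2 genes were called higher and 1 lower, against 14.5% of all genes, and without batch 1, 3 and 1, against 17.8%. The 2 genes with an unadjusted p under 0.05 were Cox6a2 (2.02, SE 0.68, adjusted p = 0.194), at the low levels given above, and Ndufb8 (-0.50, SE 0.20, adjusted p = 0.24). Of the nuclear subunits, 47 had values below 0 and 31 above, with a median of -0.03 and batch medians of -0.22, 0.13 and 0.01. Of the mitochondrial genes, 10 of 13 were above 0 with a median of 0.16 and batch medians of -0.13, 0.08 and 0.46. The interaction of the log2 ratio of mitochondrial to nuclear subunit counts was 0.194, 0.078 and 0.644 in batches 1, 2 and 3, and 0.247, 0.057 and 0.402 without mt-Co1.

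Genes of the pathway that the naming rule does not take were counted from 3 lists. The first holds 35 genes, mostly assembly factors, with cytochrome c (Cycs) and the subunits Cyc1 of complex III and Usmg5 of complex V. Of these, 16 (45.7%) were lower and 3 (8.57%) higher in D2.OR in each culture, where 24.4% of all tested genes were lower and 25.4% higher in 2D and 26.1% and 27.7% in 3D, and the medians were -0.36 in 2D and -0.34 in 3D. Cyc1, the cytochrome c1 subunit, was lower in both cultures (-0.50, adjusted p = 0.0204, and -0.57, adjusted p = 0.0102), and Usmg5 was lower in 3D (-0.39, adjusted p = 0.0108) and at -0.13 in 2D (adjusted p = 0.326). Lyrm7, a chaperone for the iron-sulfur subunit of complex III, had -1.99 in 2D (adjusted p = 5.1e-05), at 4, 5.21 and 5.31 TPM in D2A1 and 1.08, 1.03 and 1.13 in D2.OR. Atpaf1, which assembles complex V, was lower in both cultures (-0.79 and -0.85), while Sdhaf2, which helps attach the flavin of Sdha, was higher in 2D (0.72, adjusted p = 0.000254). In 3D, the complex I assembly factor Acad9 and the complex II assembly factor Sdhaf3 were lower (-0.78 and -1.43). These differences were not confined to a single culture. Acad9 in 2D was at 60.96 to 67.79 TPM in D2A1 and 29.73 to 38.08 in D2.OR. Sdhaf3 in 2D was at 2.32 to 3.32 and 0.98 to 1.16 TPM. Lyrm7 in 3D was at 3.81 to 5.2 TPM in D2A1 and 1.49 to 1.99 in D2.OR. Sdhaf2 in 3D was at 19.41 to 23.37 and 30.99 to 34.49 TPM. Uqcc2, a complex III assembly factor, was the 1 gene of this list that changed with culture, with 374, 372.8 and 398.3 TPM in D2A1 2D and 458.4, 471.9 and 478.3 in D2A1 3D (0.44, SE 0.08, adjusted p = 0.0394).

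Of 23 nuclear genes that maintain, transcribe or process the products of mitochondrial DNA, 11 (47.8%) were lower in D2.OR in each culture, against the 24.4% and 26.1% of all tested genes given above, and 1, Tfam, was higher. Tefm, the elongation factor of the mitochondrial polymerase, had 21.1, 25.2 and 19.2 TPM in D2A1 2D and 10.6, 10.9 and 11.5 in D2.OR 2D (log2 fold change -0.88, adjusted p = 0.00051, and -1.07 in 3D, adjusted p = 0.000154). Ssbp1, the single-strand DNA binding protein of the mitochondrion, had -0.71 and -0.83, and Fastk, of a family of mitochondrial RNA regulators, -0.57 and -0.65, all called. Tfam, which packages mitochondrial DNA and starts its transcription, was at 49.1, 36.4 and 34.9 TPM in D2A1 2D and 50.7, 48.7 and 55.9 in D2.OR 2D. These counts stand beside mitochondrial genes of which 1 passed in 2D and 0 in 3D.

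Of 12 regulators of nuclear respiratory genes, 11 were tested, 2 (18.2%) were lower and 1 (9.09%) higher in 2D, below the 24.4% and 25.4% of all tested genes, and 4 were lower and 1 higher in 3D, against 26.1% and 27.7%. Ppargc1a, a coactivator of respiratory genes, was at 8.58, 8.57 and 9.91 TPM in D2A1 2D, 5.68, 2.5 and 2.72 in D2A1 3D, 4.14, 0.87 and 0.82 in D2.OR 2D and 1.5, 0.73 and 0.49 in D2.OR 3D. D2.OR was lower in every batch of either culture, by -2.54 in 2D (SE 0.44, adjusted p = 0.00131) and -2.11 in 3D (SE 0.43, adjusted p = 0.00279). Nrf1 was lower in both cultures, by -0.27 (adjusted p = 0.0388) and -0.39 (adjusted p = 0.00625). Myc, which also acts on many genes outside this pathway, was higher, with 37.6, 53.2 and 23.9 TPM in D2A1 2D against 138.2, 103.8 and 103.3 in D2.OR 2D (1.71, adjusted p = 0.00073) and 2.45 in 3D (adjusted p = 0.0001). Yy1 passed neither line test, and Gabpa was lower in 3D.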

How the data were processed

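RNA from 12 libraries, 4 groups of 3, was examined. The authors trimmed reads with Trimmomatic 0.32, checked them with FastQC 0.11.4, aligned them to GRCm38 with STAR 2.5.3 and the GENCODE annotation, and quantified genes with RSEM 1.3.0. They deposited a table of TPM over all libraries and, for each library, a file with its expected counts. RSEM estimates these counts by sharing out ambiguous reads, so they need not be whole. TPM is derived from these counts and transcript lengths. Strand and RNA selection are not given in the sources used here. Of the 106 genes, 71 had whole expected counts in every library (tolerance 0.001) and 35 did not.

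Expected counts were rounded and tested with edgeR 4.0.16 (R 4.3.3): quasi-likelihood F test, TMM factors, the filterByExpr filter, and group plus batch as terms over all 12 libraries. Benjamini-Hochberg adjustment ran over 16823 genes, with a threshold of 0.05. The 5 contrasts were the lines in 2D and in 3D, the cultures in each line, and the interaction. TPM served for levels only. Alternatives used DESeq2 1.42.0 and limma 3.58.1 on log2(TPM + 1) or log2(TPM + 0.1), other scalings and filters, no block, only the 6 libraries compared, and fits that dropped a batch or a single library. The code was tested on simulated data. Depth of 47589611 to 73325069 counts limits only genes with few counts, such as Cox7a1.

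The labels give the batch, so replicate numbers pair libraries. Deviations of same-numbered libraries from their group means correlated at 0.0758 to 0.511 over 18 pairs (median 0.2665). The median for other pairs was -0.195. Deviations within a group cancel out, so these medians depend on each other and the gap between them overstates the pairing.

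Genes named were, per contrast, the 5 largest rises and falls among calls with at least 10 TPM, the smallest p in each complex, all mitochondrial and complex II genes, isoform pairs, called assembly factors, and the 3 smallest p-values of each further list. Cox7b, Uqcr10, Uqcrc1, Uqcrc2, Cox6c, Cox7c, Atp5a1, Atp5b and Ndufaf1 fall outside that rule and were chosen after their values were seen. Cyc1 and Usmg5 of the further lists fall outside it too. The genes and lists were chosen with earlier results of these data known.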

Additional observations from a re-analysis of the deposited data

Results flagged for a closer look

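Without mt-Co1, the ratio of mitochondrial to nuclear subunit counts was higher in 3D than in 2D in every batch of D2.OR and lower in every batch of D2A1. The mean differences lay 0.24 apart on the log2 scale, D2.OR above D2A1. This difference was not tested, and with mt-Co1 in the sum the batches of D2.OR did not share a sign.

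Signals were present in data that none of the comparisons used. The ribosomal RNA genes of mitochondrial DNA took up to 0.0859% of a library's counts. Their share was 0.0244% to 0.0309% in D2A1 2D, 0.0229% to 0.0335% in D2A1 3D, 0.0468% to 0.0722% in D2.OR 2D and 0.0676% to 0.0859% in D2.OR 3D, without overlap between the lines. The processed pseudogene Atp5l-ps1, named for the complex V gene Atp5l, reached an estimated 53.2 counts in 1 library, where a count of 0 allows 3. The values of Atp5l are uncertain to that extent.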

How the results depend on the processing

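The alternatives were run on the genes of the naming rule that the selection rule named, and not gene by gene on the further lists or on Cox7b, Uqcr10 and Uqcrc1. Of 27 such genes called between the lines in 2D, 12 kept their call in every alternative that gave a value, and of 28 in 3D, 11 did, with Cox7a1 among them in both. None of these changed sign. The 2D total of 55 respiratory genes called was 33 with only the 6 libraries compared, where calls over all genes were 37.5% in place of 49.8%, and ranged from 22 to 66 when a batch or library was left out. The 3D total of 56 ranged from 24 to 65. For culture in D2.OR, the total of 0 was 1 with DESeq2, 1 with only the 6 libraries compared and 1 with limma on log2(TPM + 1), and ranged from 0 to 5 with libraries left out. For culture in D2A1, the total of 0 was 11 with DESeq2 and ranged from 0 to 28. The interaction total ranged from 0 to 4. The nuclear minus mitochondrial median for culture in D2A1, 0.13, ranged from -0.02 to 0.26 and was lowest without the batch 3 library of D2A1 in 2D. The mitochondrial share was 4.67% of TPM in D2A1 2D, 4.1% in D2A1 3D, 3.87% in D2.OR 2D and 4.4% in D2.OR 3D, above the shares of counts. Without the replicate block the totals were 53 in 2D and 56 in 3D, and of the genes named by the selection rule mt-Co3 and Ndufa13 lost their 2D call, Sdhc lost its 3D call, and Atp5g3 in 2D and Atp5s in 3D gained one. The cause of these changes was not tested. Few counts limit Cox7a1, Cox6a2 and Ndufa4l2.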
